A study of Drosophila melanogaster with 2 samples.

Results

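Translation factors and aminoacyl-tRNA synthetases are the soluble proteins that run protein synthesis beside the ribosome. Their genes were taken by symbol: protein-coding genes of the Ensembl annotation whose symbol begins with eIF, eEF or eRF, or is made of 3 letters for an amino acid followed by RS, with or without -m. The rule reads symbols only, although it was set with earlier results of these data known. It gave 86 of the 13945 protein-coding genes on the 6 chromosome arms, namely 44 initiation factor genes, 8 elongation factor genes, 2 release factor genes, 17 synthetase genes without -m and 15 with it.

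Initiation factors bring the initiator tRNA to the small ribosomal subunit, load it on the capped mRNA and join the large subunit. Elongation factors deliver charged tRNAs and move the ribosome along, and release factors free the finished chain at a stop codon. Synthetases join each amino acid to its tRNA. Mitochondria have ribosomes of their own, and the suffix -m marks nuclear genes whose synthetase works there. In humans the glycyl- and lysyl-tRNA synthetase genes serve both compartments, so the genes without -m are called cytoplasmic or shared.

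The measurement was chromatin immunoprecipitation with sequencing (ChIP-seq) in whole Drosophila melanogaster embryos of 0 to 24 h that carry the forkhead factor fd96Cb fused at its C-terminus to GFP. The 2 libraries, biological replicates 2 and 3, form 1 group without a contrast, and no tissue was separated, so a peak cannot be placed in a cell type. The labels speak of an anti-GFP precipitation while their antibody field gives fd96Cb. Each replicate list and the list of the pooled replicates held 30000 peaks, and the optimal set held 5743, which were the 5743 strongest peaks of the pooled list. That set takes its size from the irreproducible discovery rate (IDR), a measure of how well the ranks of 2 replicates match. A gene was counted as having an IDR peak when a summit lay within 1000 bp of any of its annotated transcription start sites (starts). The signal value is the authors' own and ranks peaks within a list, the sequencing depth is unknown, and no test was run on lists of genes.

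IDR peaks lay at the starts of 28 of the 86 genes (32.6%), against 21.9% of all protein-coding genes. The 28 peaks were all distinct. Another 30 genes had a weaker peak of the pooled list, so that 58 of 86 (67.4%) had some pooled peak, against 55.9% of all genes, and 28 had none. Taken from the strongest 5743 peaks of replicate 2 alone the count was 26 of 86 (30.2%, against 21.8% of all genes), and from replicate 3 alone 29 of 86 (33.7%, against 21.6%), with 25 of the 28 genes in each. A start of the member itself was the nearest start to 17 of the 28 peaks, and a neighbouring gene was nearer to the other 11. When each promoter summit was given only to the gene with the nearest start, 18 of the 86 genes held one (20.9%), against 15.9% of all genes. The count is 1 above the 17 because eIF1 has a second, weaker IDR summit that is nearest to its own start.

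Among synthetases, 8 of 17 cytoplasmic or shared genes (47.1%) and 4 of 15 mitochondrial genes (26.7%) had an IDR peak. The initiation factors gave 11 of 44 (25%), and the elongation and release factors together gave 5 of 10 (50%). By nearest start, the cytoplasmic count fell to 4 of 17 (23.5%), the mitochondrial count to 1 of 15 (6.67%) and the initiation factor count to 8 of 44 (18.2%), while all 5 elongation and release factors stayed. Within initiation, IDR peaks stood at 3 of the 5 genes eIF1, eIF1A, eIF5, eIF5B and eIF6. Of the 10 genes with an eIF2 symbol, which are eIF2, its exchange factor eIF2B, eIF2A and eIF2D, 3 had one. These 3 were eIF2Bbeta, eIF2Bdelta and eIF2D. The eIF3 scaffold had IDR peaks at 4 of 16 genes and the cap-binding eIF4 group at 1 of 13. Of all protein-coding genes, 21.9% had an IDR peak, and 15.9% by nearest start. Groups this small move by several percentage points with a single gene, and the differences between them or from all genes were not tested.

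**Figure D1:**
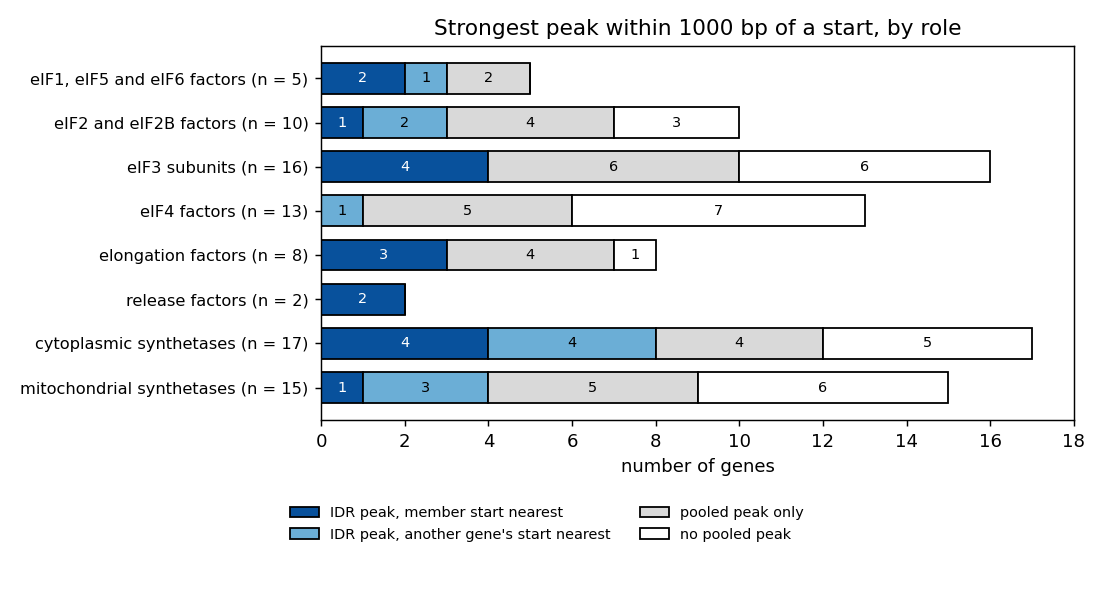
Number of genes (horizontal axis) in each role group by the strongest peak within 1000 bp of a start: an IDR peak nearest to the member, an IDR peak nearest to another gene, a pooled peak outside the IDR set, or none. The IDR peaks of the eIF3, elongation and release groups are all nearest to the member, while 4 of the 8 cytoplasmic and 3 of the 4 mitochondrial synthetase peaks are nearer to a neighbour.

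Neighbouring genes were common at these starts. A start of another protein-coding gene lay within 500 bp upstream on the other strand, a head-to-head arrangement, for 42 of the 86 genes (48.8%) against 27.4% of all genes. It held for 13 of 17 cytoplasmic synthetases (76.5%), 7 of 15 mitochondrial ones (46.7%) and 18 of 44 initiation factors (40.9%). Of the 42 head-to-head translation genes 20 had an IDR peak (47.6%), against 38.2% of all head-to-head genes. Of the other 44 genes 8 had one (18.2%), against 15.8% of all other genes. Genes with several starts also had more peaks, 15 of 30 among the translation genes (50%, against 36.4% of all such genes), while single-start genes gave 13 of 56 (23.2%, against 16.6%). The 5 elongation and release factor genes with an IDR peak were all among the 7 of 10 with several starts. Single-start genes made up 86.7% of mitochondrial and 64.7% of cytoplasmic synthetases, against 73.5% of all genes. The part of these features in the higher count of translation genes, or in the shares of the groups, was not tested.

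The strongest peak near a translation gene was the one upstream of eIF2Bbeta, a subunit of the exchange factor that reloads eIF2 with GTP. It had rank 2 in the pooled list and in both replicates, with a signal of 4936 in the pooled list, 2000 in replicate 2 and 2949 in replicate 3. Its summit lay 686 bp upstream of the eIF2Bbeta start but only 33 bp upstream of Ugalt, a UDP-galactose transporter gene. The peak next in strength was that of eIF4EHP, a cap-binding protein that represses translation of bound mRNAs, with rank 55 (36 in replicate 2 and 72 in replicate 3) and a pooled signal of 2000. Its summit, 237 bp upstream of eIF4EHP, lay 139 bp from the head-to-head start of CG18428. LeuRS-m had the peak of rank 245 (275 and 227 in the replicates, pooled signal 1092), 838 bp upstream of its start and within an intron of Dhc64C, a dynein heavy chain gene. All 3 of these strong peaks were thus nearer to another gene.

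Among peaks nearest to the translation gene itself, that of eIF6 was the strongest. eIF6 keeps the large ribosomal subunit apart from the small one. Its peak had rank 187 in the pooled list (signal 1228), 128 in replicate 2 and 247 in replicate 3, and its summit lay 104 bp upstream. The synthetases followed, with IleRS at rank 385 (signal 880.4, ranks 256 and 553), SerRS at rank 667 (signal 668.7, ranks 410 and 934) and ThrRS at rank 696 (signal 651.4, ranks 335 and 1232). In each of these 4 peaks replicate 2 placed the peak higher than replicate 3.

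The bases under 6 of the summits, with 50 on each side, are shown for the 2 strongest peaks, for 2 others with a forkhead word and for the 2 strongest synthetase peaks nearest to their own start. They are from the Release 6 genome (dm6), read 5′ to 3′ on the strand of the translation gene. Capitals mark a broad forkhead word, that is ACAAACA or ACAAATA or ATAAACA or ATAAATA or GCAAACA or GCAAATA or GTAAACA or GTAAATA on either strand. The strict word GTAAACA is one of them. The stretch upstream of eIF2Bbeta (chrX:2703835-2703935, plus strand) holds 2 such words and that of eIF4EHP (chr3R:24109147-24109247, minus strand) holds 1, as does the AT-rich stretch of eRF3 (chr2L:12434281-12434381, plus strand). The stretch of AsnRS (chr2L:19132037-19132137, minus strand) holds 2. Those of IleRS (chr3L:22288444-22288544, plus strand) and SerRS (chr2L:3037311-3037411, minus strand) hold none.
eIF2Bbeta: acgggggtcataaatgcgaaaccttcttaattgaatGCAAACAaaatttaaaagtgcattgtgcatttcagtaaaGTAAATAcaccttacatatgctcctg
eIF4EHP: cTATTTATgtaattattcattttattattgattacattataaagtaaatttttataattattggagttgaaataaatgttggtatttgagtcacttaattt
eRF3: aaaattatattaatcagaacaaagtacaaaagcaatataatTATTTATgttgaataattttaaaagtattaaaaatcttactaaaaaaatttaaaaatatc
AsnRS: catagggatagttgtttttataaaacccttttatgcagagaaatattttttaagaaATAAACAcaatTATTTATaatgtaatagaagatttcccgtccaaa
IleRS: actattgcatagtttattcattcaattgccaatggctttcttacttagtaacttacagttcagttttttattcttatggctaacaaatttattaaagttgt
SerRS: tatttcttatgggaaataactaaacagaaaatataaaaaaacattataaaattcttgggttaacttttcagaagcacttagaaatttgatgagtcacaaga

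Initiation factors that act on the small subunit or at subunit joining carried peaks at different distances. eIF1, which guards the choice of start codon, had a pooled signal of 398.5 (135.0 in replicate 2 and 256.7 in replicate 3) at 317 bp upstream, and the nearest start was that of the ribosomal protein gene RpL28, 64 bp away. eIF1 was the member with 2 IDR summits in its window. eIF5B, the GTPase of subunit joining, had its summit 170 bp downstream of a start, in its 5′ UTR, with a signal of 338.6 (169.0 and 163.3). Of the 3 summits that lay downstream of a start, this was one, and those of SerRS (42 bp, 5′ UTR) and eIF3h (292 bp, intron) were the others. eIF1A and eIF5 had pooled peaks only, with signals of 61.5 and 110.8.

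The trimeric factor eIF2 itself had no IDR peak. It carries the initiator tRNA, and its beta subunit had a pooled peak of signal 99.3 (rank 7457) that replicate 3 ranked 4717 and replicate 2 did not list. The gamma subunit had one of signal 47.9 near the start that it shares with Su(var)3-9, and eIF2alpha had none. In eIF2B, the exchange factor, the beta subunit peak described above and one 737 bp upstream of the delta subunit (signal 181.2, ranks 3288 and 4879, nearest start CG30414) were IDR peaks. The epsilon subunit had a pooled peak of signal 38.6, and the alpha and gamma subunits had none. eIF2D, which can deliver tRNA outside the main route, had an IDR peak at its own start (139 bp upstream, signal 212.4, ranks 3140 and 3438).

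In the eIF3 complex, which holds the small subunit ready for the mRNA, the 4 IDR peaks all belonged to the member by position. eIF3c was the strongest, with a pooled signal of 370.4 at 21 bp upstream and ranks of 1091 and 2365 in the replicates. eIF3h had 300.3 (ranks 2856 and 1849), eIF3a 158.5 and eIF3m 139.2 (ranks 5335 and 5446). The eIF3a summit, 23 bp upstream, had no match within 100 bp in replicate 2 and rank 4668 in replicate 3. The pooled list had weaker peaks at eIF3l, eIF3k, eIF3d1, eIF3i, eIF3f1 and eIF3g1, with signals from 70.8 down to 31.5, and none at eIF3b, eIF3e, eIF3j, eIF3d2, eIF3f2 and eIF3g2. The last 3 are paralogs of eIF3d1, eIF3f1 and eIF3g1 that are known for expression in the testis. Their partners eIF3d1, eIF3f1 and eIF3g1 had pooled signals of 56.6, 37.0 and 31.5.

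The eIF4 group had the fewest peaks. It recognises the mRNA cap and unwinds the leader, and its sole IDR peak was the eIF4EHP peak near CG18428. The helicase gene eIF4A had a pooled peak of signal 48.9 at 766 bp upstream, 20 bp from the start of chic. eIF4E3 and eIF4G2, known for their roles in spermatogenesis, had signals of 52.7 and 52.3, and eIF4H2 and eIF4E6 had 42.2 and 36.5. The main cap-binding gene eIF4E1 and the scaffold gene eIF4G1, on chromosome 4, had no pooled peak, nor had eIF4E4, eIF4E5, eIF4E7, eIF4B and eIF4H1. At eIF4B, 591110 bp from the nearest IDR summit, replicate 2 listed a peak of rank 4454 and replicate 3 one of rank 18045. The median distance from a gene to its nearest IDR summit was 30289 bp for the eIF4 group, 7851.5 bp for all initiation factors and 6581 bp for all protein-coding genes.

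The 5 IDR peaks of elongation and release factor genes were all nearest to the member's own start. eEF1gamma, a subunit of the exchange complex for eEF1A, had a pooled signal of 468.5, with 176.3 in replicate 2 and 291.5 in replicate 3 (ranks 1189 and 1222), 36 bp upstream. eEF1alpha1, one of 2 genes for the tRNA-delivering factor, had 247.8 (108.9 and 131.5) at 89 bp upstream of an internal start. Its paralog eEF1alpha2 had no pooled peak, and 3 other elongation factor genes had weak ones farther from their starts. These were eEF1delta (signal 70.6, 391 bp upstream), eEFSec (38.4, 393 bp upstream and 12 bp from the start of Acox57D-p) and eEF1beta (35.6, 334 bp downstream in its coding exon). eEF5, which eases the ribosome over difficult residues, had 145.3 at 43 bp upstream. Within 100 bp of that summit replicate 3 gave rank 3702 and replicate 2 rank 20215. Both release factors had a peak, eRF3 with 373.2 (161.4 and 219.0) at 121 bp upstream and eRF1 with 281.1 (117.3 and 130.3) at 125 bp upstream. The pair differed by 4 bp in position, and replicate 2 ranked each of the peaks higher (1330 against 1810 and 2095 against 3533).

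The translocase gene eEF2 stood just outside the IDR set. Its pooled peak, 10 bp downstream of a start, had a signal of 124.2 and rank 5958, and replicate 2 listed no summit there. Just inside was AspRS-m, with a signal of 136.3 and rank 5444, while the lowest signal in the IDR set was 128.7. The members that came next outside were eIF2A (115.4), AlaRS (110.9), eIF5 (110.8) and SerRS-m (109.3). Of the 30 genes with only a pooled peak, replicate 3 listed a summit within 100 bp for 24 and replicate 2 for 9. The strongest 5743 peaks of replicate 3 held 4 of these 30 peaks and those of replicate 2 held 0. The same counts were not made over all genes with only a pooled peak. The difference between replicates therefore cannot be called particular to the translation genes.

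**Figure D2:**
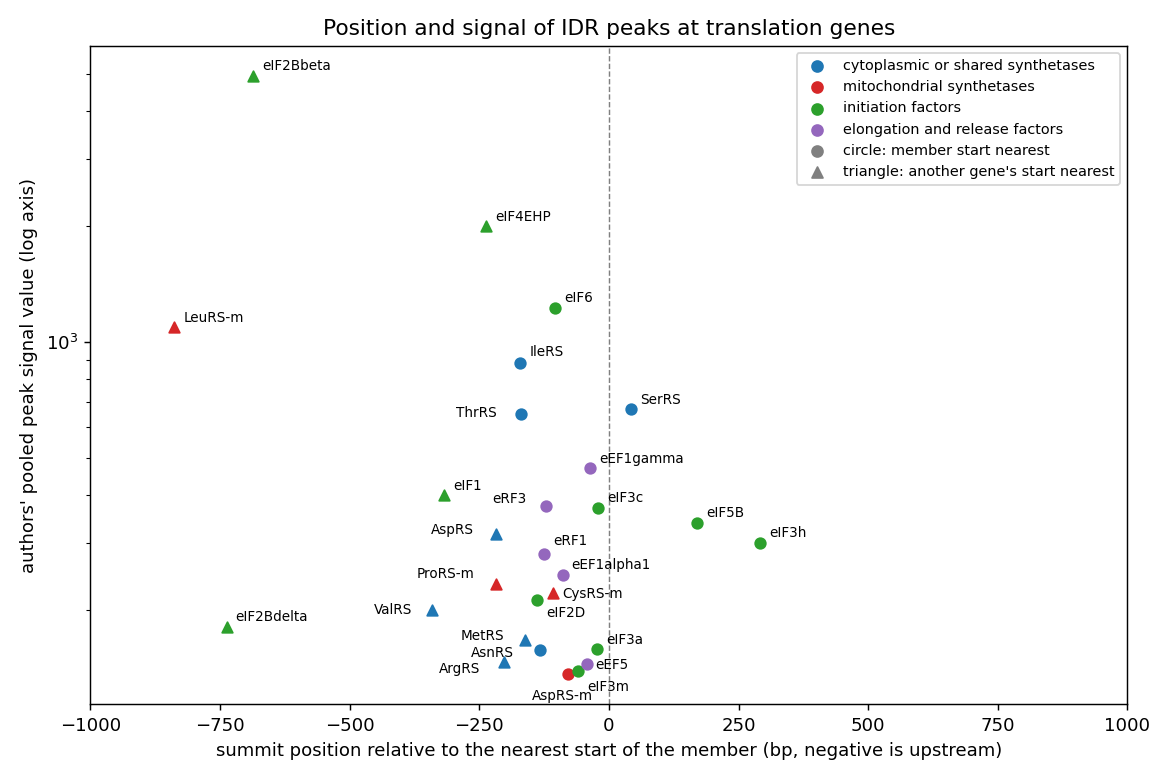
Position of the summit relative to the nearest start of the member in bp (horizontal) and the authors' pooled signal on a log axis (vertical) for the 28 IDR peaks, with colours for role and triangles where another gene's start is nearer. The peaks of highest signal at eIF2Bbeta and eIF4EHP are triangles, and 16 of the 28 summits lie within 200 bp upstream.

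Summits sat upstream of the start in 25 of the 28 genes (89.3%), against 85.1% of all genes with an IDR peak. The median position was -129 bp (quartiles -218 and -55) for the translation genes and -166.5 bp for all genes. The 17 peaks nearest to the member lay between -171 and 292 bp, and the 11 peaks nearer to another gene lay between -838 and -108 bp. Of these 11, 9 had a head-to-head neighbour, and in 8 the nearest start was that neighbour's. No summit lay in a coding exon, 19 lay in intergenic sequence, 7 in an intron and 2 in a 5′ UTR, where a summit in overlapping genes counts for each feature. The peak of eIF2Bdelta lay in the 3′ UTR of roh.

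Genes for the cytoplasmic and the mitochondrial synthetase of the same amino acid could be compared for 12 amino acids. In 6 pairs only the cytoplasmic gene had an IDR peak, in 2 only the mitochondrial one, in 1 both and in 3 neither. The cytoplasmic gene was nearer to an IDR summit in 9 of the 12 pairs. IleRS had 880.4 while IleRS-m had no pooled peak, and SerRS had 668.7 against 109.3 for SerRS-m. Values were 199.9 at ValRS (341 bp upstream, nearest start Kdm4B) against no peak at ValRS-m, and 167.6 at MetRS (nearest start CG15084) against 31.1 at MetRS-m. AsnRS had 157.9 against 33.8 for AsnRS-m, and ArgRS had 146.4 (nearest start CG8578) against 86.7 for ArgRS-m. The replicate lists gave this last pair the other order. Replicate 3 ranked the ArgRS peak 8258 and the ArgRS-m peak 7025. In replicate 2 only the ArgRS-m peak was listed, at rank 23912.

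In the remaining 6 pairs the cytoplasmic gene was not the only one with an IDR peak. For aspartate both genes had IDR peaks, AspRS with 317.0, in introns of AspRS and Nmda1, and AspRS-m with 136.3. LeuRS-m, with its distant peak inside Dhc64C, had 1092 where LeuRS had no pooled peak. CysRS-m had 221.9 at 108 bp upstream, but 60 bp from the start of O-fut1, where CysRS had none. AlaRS had a pooled peak of 110.9 and AlaRS-m none, TrpRS-m had one of 51.7 and TrpRS none, and neither TyrRS nor TyrRS-m had one. Among synthetases without such a partner here, ThrRS and ProRS-m (234.9, 20 bp from the starts of CG42304 and Snup) had IDR peaks. GlyRS, GlnRS and HisRS had pooled peaks only (99.0, 84.7 and 61.8), and LysRS, PheRS-m and GluRS-m had none.

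**Figure D3:**
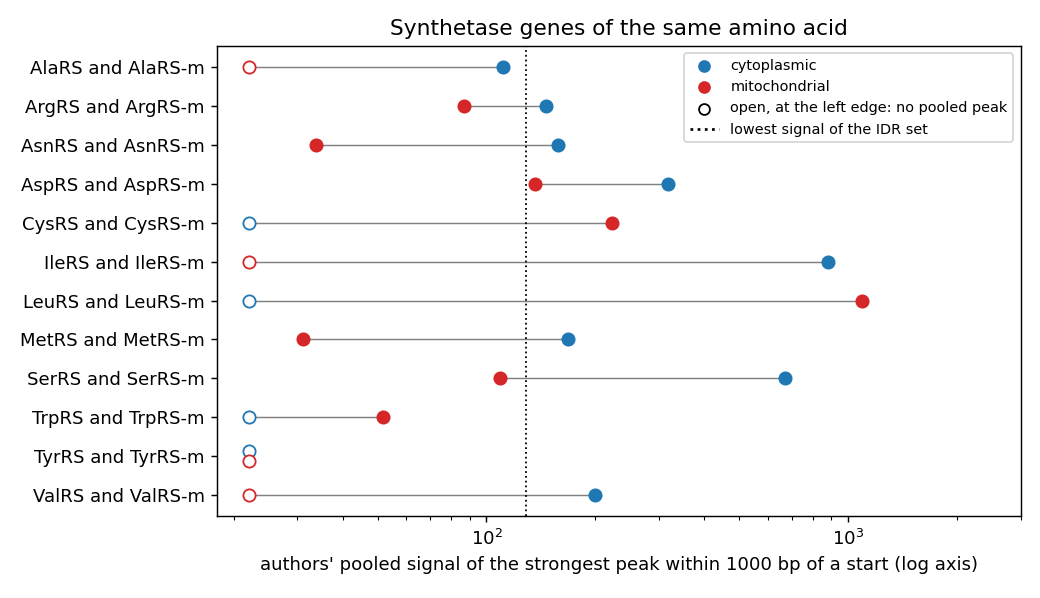
Authors' pooled signal on a log axis (horizontal) of the strongest peak near the cytoplasmic (blue) and mitochondrial (red) synthetase gene of each amino acid (rows), with open symbols at the left edge for no pooled peak and a dotted line at the lowest signal of the IDR set, 128.7. The blue point lies to the right of the line in 7 rows and the red point in 3.

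Replicate ranks were within a factor of 2 for most of the 28 peaks. Both replicates had a summit within 100 bp among their strongest 5743 for 23 of the 28 (82.1%), against 77.6% of all 2511 IDR promoter peaks, although the pooled list draws on both replicates. For the 26 peaks listed in both, the ranks differed by a median factor of 1.48 and by a factor over 2 in 6 of them. These factors were not computed over all IDR promoter peaks. The largest, 5.46, was at eEF5 and depends on the 100 bp match. Replicate 2 had a stronger summit, of rank 7137, farther away but within 1000 bp of an eEF5 start. Replicate 2 ranked 19 of the 26 higher (73.1%), against 58.4% of all such promoter peaks. The exceptions to a match in both were eIF3a and ArgRS, which replicate 2 did not list, eEF5, and AsnRS and AspRS-m, which replicate 3 ranked 5881 and 5831. The ArgRS peak, at rank 8258, was also outside the strongest 5743 of replicate 3.

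**Figure D4:**
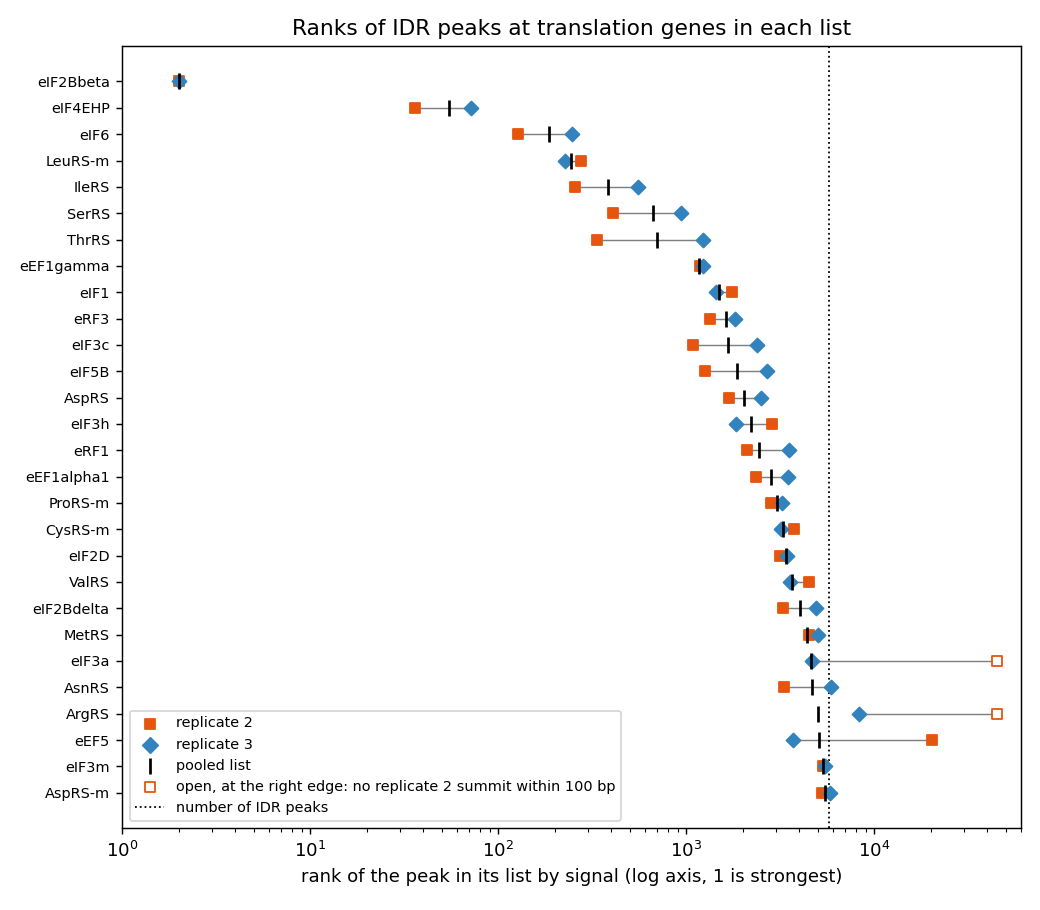
Rank by signal on a log axis (horizontal) in replicate 2 (squares), replicate 3 (diamonds) and the pooled list (bars) for the 28 IDR peaks, in pooled order, with open squares at the right edge for no replicate 2 summit within 100 bp and a dotted line at 5743. The replicates stand close at eIF2Bbeta and eEF1gamma and far apart at eEF5, eIF3a and ArgRS.

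Mean GC was higher at peaks of factor genes than at peaks of synthetase genes, a difference that was not tested. GC within 50 bp of the summit averaged 33.2% ± 10.9 (SD over 28 peaks), against 30.7% ± 8.46 (SD over 2511 peaks) for all IDR promoter peaks. It averaged 27.5% ± 5.83 (SD over 12 peaks, 19.8 to 37.6%) at synthetases and 37.6% ± 11.9 (SD over 16 peaks, 12.9 to 54.5%) at factors, ranges that overlap. Among the 28 IDR peaks, the 5 summits above 45% GC were all at factor genes, namely eEF5, eIF3a, eIF1, eEF1alpha1 and eEF1gamma. They made up 17.9%, against 7.13% of all IDR promoter peaks. The lowest of the 28 were eRF3 with 12.9% and eIF4EHP with 16.8%. Outside the IDR set, the pooled summits of the synthetase genes MetRS-m (57.4%) and ArgRS-m (50.5%) also lay above 45%, beside those of several factor genes.

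**Figure D5:**
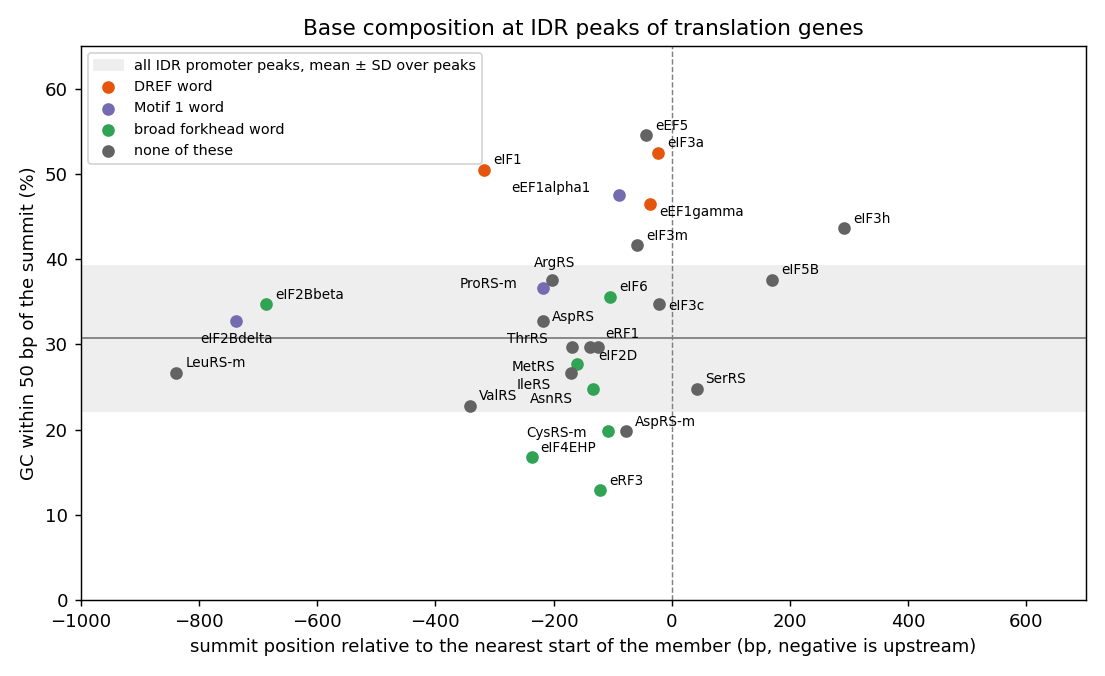
GC within 50 bp of the summit in percent (vertical) against the position of the summit relative to the start in bp (horizontal) for the 28 IDR peaks, with colours for words found at the summit and the grey band for the mean ± SD over all IDR promoter peaks. The DREF word is seen at eIF1, eIF3a and eEF1gamma, between 46.5 and 52.5% GC, and the broad forkhead word at 35.6% GC or less.

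Of these 5 GC-rich summits, all but that of eEF5 held a word of a core promoter factor. DREF, a factor of growth and replication genes, binds TATCGATA, and M1BP, a factor of ribosomal protein and other housekeeping promoters, binds Motif 1, searched here as GGTCACAC, each on either strand within 50 bp of the summit. The DREF word was found at 3 of the 28 summits (10.7%, against 1.27% of all IDR promoter summits) and the Motif 1 word at 3 (10.7%, against 0.637%). Together they marked 6 of 28 summits (21.4%, against 1.91%). Those of eIF1, ProRS-m and eIF2Bdelta were nearer to the starts of other genes, namely RpL28, CG42304 with Snup, and CG30414. The summits of eEF1gamma, eIF3a and eEF1alpha1 were nearest to the member's own start. The broad forkhead word was found at 7 of 28 (25%, against 39.0%). The strict forkhead word GTAAACA was found at 0 of 28 (against 3.15%), the homeodomain word TAATTA at 3 (10.7%, against 12.4%) and the GATA word, that is AGATAA or AGATAG or TGATAA or TGATAG, at 3 (10.7%, against 23.3%). The strict word is also one of the broad words, and the shares are not matched on base composition. A word describes the letters of the window and shows no binding.

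The 4 stretches that follow are shown because they hold the DREF or Motif 1 word, in capitals. They are again the summit base of the Release 6 genome with 50 on each side, 5′ to 3′ on the strand of the gene. They lie at eEF1gamma (chr3R:29220086-29220186, plus strand), eIF1 (chr3L:3222974-3223074, plus strand), eIF3a (chr3R:4433868-4433968, minus strand) and, for the Motif 1 word, ProRS-m (chr3L:2652018-2652118, minus strand).
eEF1gamma: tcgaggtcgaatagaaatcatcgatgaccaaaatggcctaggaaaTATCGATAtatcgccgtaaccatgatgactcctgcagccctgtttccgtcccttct
eIF1: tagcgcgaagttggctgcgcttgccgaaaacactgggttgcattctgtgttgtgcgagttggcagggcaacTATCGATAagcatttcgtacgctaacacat
eIF3a: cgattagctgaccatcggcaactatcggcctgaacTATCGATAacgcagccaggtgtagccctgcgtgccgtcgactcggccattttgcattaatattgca
ProRS-m: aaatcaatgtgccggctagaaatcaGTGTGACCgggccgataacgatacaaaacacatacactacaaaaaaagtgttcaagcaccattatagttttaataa

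The promoters of translation genes as a whole were searched in the same way, from 250 bp upstream to 50 bp downstream of the most 5′ start. The DREF word occurred in 20 of 86 (23.3%), against 9.36% of all protein-coding genes, with 12 of 44 initiation factors, 4 of 17 cytoplasmic and 1 of 15 mitochondrial synthetases. The Motif 1 word occurred in 10 of 86 (11.6%, against 7.7%) and the strict forkhead word in 8 of 86 (9.3%, against 9.19%). The broad forkhead word occurred in 61 of 86 (70.9%, against 62.9%). An IDR peak was present at 8 of the 20 translation genes with the DREF word (40%) and at 20 of the 66 without it (30.3%), where all genes gave 30.2% with it and 21.0% without it. For the Motif 1 word the order was the other way, 2 of 10 (20%) with it and 26 of 76 (34.2%) without it. All genes gave 30.9% and 21.1%. For the broad forkhead word the shares were 32.8% with it and 32.0% without it, where all genes gave 23.5% and 19.2%. These differences were not tested. A TCT initiator, the pyrimidine-rich start known from ribosomal protein genes and searched as CTTTT or CTTTC on the gene's strand with its first base within 2 bp of any start, was found at 4 of 86 genes (4.65%, against 2.04%). These were SerRS, LysRS, TyrRS and eIF3m, and 2 of them, SerRS and eIF3m, had an IDR peak.

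Other translation genes outside the symbol rule were looked up from a list of 27, of which 26 matched by symbol. IDR peaks lay at 9 of these 26 (34.6%), against 21.9% of all genes. They were at GluProRS, the fused glutamyl- and prolyl-tRNA synthetase (signal 745.0, nearest start AP-1sigma), the poly(A)-binding protein gene pAbp (392.1), Paip2 (248.5), the recycling factor gene pix (235.5), the rescue factor genes HBS1 (227.4) and pelo (145.0), beta-PheRS (212.6), the eIF2 kinase gene Gcn2 (170.5, nearest start Ugt35D1) and the eIF4E inhibitor gene Thor (158.0). The peaks of pAbp and beta-PheRS had no replicate 2 summit within 100 bp. The strongest peaks of replicate 2 alone, as many as in the IDR set, gave 5 of 26 (19.2%, against 21.8% of all genes). Replicate 3 alone gave 9 of 26 (34.6%, against 21.6%). The higher share was thus seen in replicate 3 and not in replicate 2. The mitochondrial factors mIF2, mIF3, mEFTu1, mEFTu2, mEFG1 and mRF1 had pooled peaks only, with signals from 31.6 to 67.0, and mEFTs, mRRF1 and mRRF2 had none. Set beside the ribosome itself, IDR peaks were present at 53 of 92 genes with symbols beginning RpL or RpS (57.6%) and at 24 of 73 mitochondrial ribosomal protein genes (32.9%). The differences between these lists and the translation genes were not tested.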

How the data were processed

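In dm6 coordinates, per the labels, the authors deposited the −log10 q-value and the signal of every peak, with 1 list for each of the 2 replicates, 1 for both pooled and 1 optimal IDR set. Per the labels' file notes, both replicates shared a control alignment. Software names and the IDR cutoff were not given in the sources used here. No file used here gives read totals, so the depth and its precision are unknown.

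Peaks were ranked by the deposited signal, and the −log10 q-value was not compared. A summit that fell beyond the end of its interval (between 1 and 4 in each list, none near a member) was set to the last base. Starts came from Ensembl release 115 (19607 of protein-coding genes) and bases from the RefSeq Release 6 genome. Replicate summits were matched within 100 bp. With 1 group there was no contrast and no test. The members, lists and words were chosen with earlier results of these data known. The broad forkhead words, the head-to-head distance of 500 bp and the split by number of starts were chosen after values were seen. Named genes are all members with an IDR peak, the 5 next in signal, both genes of each synthetase pair, members without a pooled peak, and nearer neighbours. Other members are named beside their group, chosen after values were seen. Alternatives were other windows, matching distances and lists, a single start per gene, and each replicate left out. The assignment was tested on simulated data. Python 3.11.15, numpy 2.4.6, pandas 2.3.3 and matplotlib 3.10.9 were used.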

Additional observations from a re-analysis of the deposited data

How the results depend on the processing

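Of 63 alternative values for the counts, positions, ranks, base composition and words of the translation genes, 49 stayed within 1.5 times the value reported or within its spread. For ranks and GC the spread was the difference between the 2 replicate values divided by the square root of 2. It came from the same replicate values that it judged, so it cannot weigh those. For the upstream share it was a binomial interval that treated the 28 genes as independent. Given to the nearest start, the counts with an IDR peak were 18 of all 86 genes (20.9%, against 15.9% of all protein-coding genes), 4 cytoplasmic and 1 mitochondrial synthetases. In the stronger part of the IDR set they were 16 (18.6%, against 12.9% of all protein-coding genes), 4 (23.5%), 1 (6.67%) and, for initiation factors, 7 (15.9%). In the full pooled list they were 58 in all (67.4%, against 55.9% of all protein-coding genes), 9 mitochondrial synthetases, 28 initiation factors and 9 elongation and release factors. Without replicate 3 the 86 translation genes gave 26 (30.2%, against 21.8% of all protein-coding genes). Without replicate 2 they gave 29 (33.7%, against 21.6%). With either replicate left out, cytoplasmic synthetases gave 7, mitochondrial ones 4, initiation factors 11 to 13 and elongation and release factors 4 to 5. Mean GC at the summits of translation genes was 30% without replicate 3 and 33.4% without replicate 2. Within 100 bp of the summit the broad forkhead word occurred at 15 peaks (53.6%, against 59.0% of all IDR promoter peaks) and the strict one at 2 (7.14%, against 6.29%). The cause of these shifts was not tested. No paired analysis was possible because there is 1 group. Depth is unknown, and with 2 libraries and groups of 2 to 44 genes a difference of a few genes between groups cannot be weighed. Whole embryos were used, so a peak present in few cells may be missed.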
